A study of Mus musculus with 30 samples.

Results

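The 4 genes of the Id family, Id1, Id2, Id3 and Id4, were followed through a microarray study of stress signalling in immortalised, exponentially growing mouse embryonic fibroblasts (MEFs). Members were the genes whose name in the array files is one of these symbols, and they are 4 of the 21689 genes named on the array. They were read by 7 probes, 2 each for Id1, Id2 and Id4 and 1 for Id3, which the files write in lower case as id3. RNA of 15 groups was read on 30 2-colour Agilent 44K arrays with 2 arrays a group, 11 groups being wild type and 4 p38α-/-, which carry a knockout of Mapk14, the gene of the kinase p38α. Wild type MEFs were given anisomycin, a protein synthesis inhibitor, at 25 ng/ml for 45 min, the cytokine TNFα at 100 ng/ml for 45 min, or a hyperosmotic shock of 100 mM NaCl for 45 min, 2 h or 8 h. Each of these 5 stresses was also given after SB203580, an inhibitor of p38α and p38β, and 1 wild type group had the inhibitor without a stress. Of the p38α-/- groups, 1 was left untreated and the others had anisomycin for 45 min, TNFα for 45 min or NaCl for 2 h at the same doses. SB203580 was used at 10 μM, added 30 min before the stress, according to the treatment protocol and the methods, whereas the sample titles give 10 mM and 2 h. The sample of a group was always labelled with Cy5 and set against the same kind of reference in Cy3, pooled from 2 untreated cultures of wild type MEFs, without swapping dyes. Values are log2 ratios of Cy5 to Cy3, so that 0 is the level of the pool. The 2 arrays of a group came from independent experiments. The ages of the embryos, the strain and the number of p38α-/- lines were not given in the sources used here.

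Id proteins are helix-loop-helix proteins without a DNA-binding region. They pair with E proteins, the ubiquitous helix-loop-helix transcription factors encoded by Tcf3, Tcf4 and Tcf12, and keep them off the E-box sequences of their target genes. In many cell types Id genes are direct targets of bone morphogenetic protein (BMP) signalling, which runs through BMP receptors and the transcription factors Smad1, Smad5 and Smad9, and they also belong to the genes that respond early to growth factors. Id proteins are known for holding back differentiation and for keeping cell cycle inhibitors such as Cdkn2a and Cdkn1a low in fibroblasts.

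In the RefSeq annotation of the build GRCm38.p6, Id1 lies at chr2:152736251-152737410, Id2 at chr12:25093799-25096092 on the reverse strand, Id3 at chr4:136143822-136145392 and Id4 at chr13:48261116-48266028. A RefSeq promoter sequence was matched for 3 of the 4 genes, Id2, Id3 and Id4. The 250 bases before the annotated start are shown because these genes moved differently under the same stresses, with every CCAAT box and its reverse complement in capitals. The windows are chr12:25096093-25096342 (reverse strand) for Id2, chr4:136143572-136143821 (forward strand) for Id3 and chr13:48260866-48261115 (forward strand) for Id4, all written 5′ to 3′.
Id2: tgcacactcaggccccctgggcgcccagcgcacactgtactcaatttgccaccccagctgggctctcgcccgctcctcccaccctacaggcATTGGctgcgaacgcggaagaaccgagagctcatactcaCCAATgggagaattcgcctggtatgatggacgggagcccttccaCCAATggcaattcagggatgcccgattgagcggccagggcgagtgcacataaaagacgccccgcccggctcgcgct
Id3: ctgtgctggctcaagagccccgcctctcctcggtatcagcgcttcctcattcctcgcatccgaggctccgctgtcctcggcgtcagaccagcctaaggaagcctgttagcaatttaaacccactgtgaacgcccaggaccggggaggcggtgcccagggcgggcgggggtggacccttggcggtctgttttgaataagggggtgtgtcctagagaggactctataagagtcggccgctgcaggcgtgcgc
Id4: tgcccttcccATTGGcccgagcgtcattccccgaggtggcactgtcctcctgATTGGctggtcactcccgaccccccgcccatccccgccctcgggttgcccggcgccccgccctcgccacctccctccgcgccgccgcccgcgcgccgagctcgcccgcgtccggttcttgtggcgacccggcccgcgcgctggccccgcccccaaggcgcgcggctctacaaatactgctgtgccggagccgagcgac
The CCAAT box occurred 3 times in the window of Id2, not at all in that of Id3 and 2 times in that of Id4. On either strand it was present in 33.8% of the 32817 promoter windows of the same length. GGCGCC, a GC-rich sequence bound by Smad proteins in BMP target genes, was found once in Id2 and once in Id4, against 9.59% of all windows. TGACG, the core of a cyclic AMP response element, was found once in Id3 and once in Id4, against 17.7%. GCGNGGGCG, the site of Egr factors, was found 2 times in Id4, against 4.7%, and CANNTG, the E-box, once in Id2, against 66.2%. TGANTCA, the AP-1 site, was found in none of these windows and in 6.75% of all. The GC content was 62.8% for Id2, 62.8% for Id3 and 75.6% for Id4, with a median of 52.4% over all windows. All motifs were searched on both strands, and a match is a description of the letters alone.

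All 7 probes were well above background in both dyes on all 30 arrays, and none was saturated. Both Id1 probes gave nearly the same log2 ratio, with a Pearson correlation of 0.999 over the 30 arrays and a median difference of 0.01. The Id2 probes also moved together, with a correlation of 0.993, but probe A_51_P219074 read lower than A_52_P240542 by a median of 0.38, between 0.22 and 0.63 on single arrays. The size of an Id2 ratio to the pool therefore depends on the probe, while its order over the groups hardly does. The Id4 probes correlated at 0.76, and they parted at NaCl for 8 h, where A_51_P494430 read 0.28 and 0.01 and A_52_P449871 read 0.91 and 0.85. Signals of the Id4 probes in Cy3 ran from 146 to 458 and from 290 to 847. The 30 arrays are not independent in these correlations, since they share the pool.

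**Figure D1:**
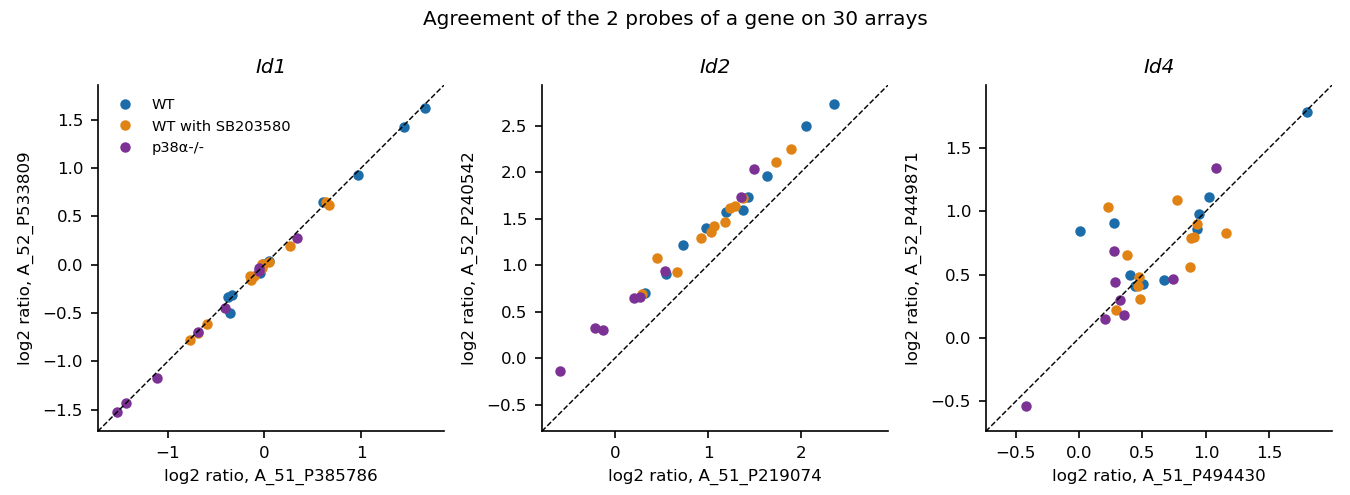
Log2 ratio to the pool of the 2 probes of Id1, Id2 and Id4, 1 point per array (30 arrays, outlier marks ignored), coloured by wild type, wild type with SB203580 and p38α-/-, with the line of equality dashed. Id1 lies on the line, Id2 lies parallel to it by a median of 0.38, and Id4 scatters most, with 0.28 and 0.01 on one probe against 0.91 and 0.85 on the other at NaCl for 8 h.

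The feature extraction software marked between 6.78% and 44.8% of spots per array as outliers, and these were left out. This removed 10 of 30 Id3 values, among them both arrays of anisomycin in wild type MEFs and both of untreated p38α-/- MEFs, and it removed the second array of TNFα in wild type MEFs for Id1. Such values are given below as marked and enter no test. Mapk14 lay between -2.24 and -0.94 on the 6 measured p38α-/- arrays and between 0.05 and 1.31 on the 16 measured wild type arrays, so that the labels of genotype and the targeted gene went together. All 9 fibroblast markers were well above background on all arrays, but so were, in Cy3, all 21 markers of endothelial, blood, epithelial, muscle and neural cells, so this reading does not tell the cell types apart. The arrays were scanned on 4 days, of which 1 held both genotypes: the first p38α-/- arrays shared a day with the second wild type arrays. In whole cultures, fewer cells with a transcript and less of it per cell cannot be told apart.

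Over all arrays the 4 genes had distinct patterns. Id2 was above the pool on 29 of 30 arrays, from -0.36 to 2.54 with a median of 1.23, and Id4 also on 29 of 30, from -0.48 to 1.79 with a median of 0.54. Id1 was above the pool on 10 of 29 measured arrays and ranged from -1.52 to 1.66. Id3 was below the pool on 19 of 20 measured arrays, from -1.18 to 0.07. All 22 wild type arrays were above the pool for Id2 and for Id4. The SD between the 2 arrays of a group had a median of 0.17 for Id1, 0.19 for Id2, 0.12 for Id3 and 0.23 for Id4. The pool is the single control sample and all ratios share it. A ratio above 0 in every group therefore cannot be told apart from a low value of that gene in the pool. With the dyes never swapped, it also cannot be told apart from a steady difference between the dyes at its probes.

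**Figure D2:**
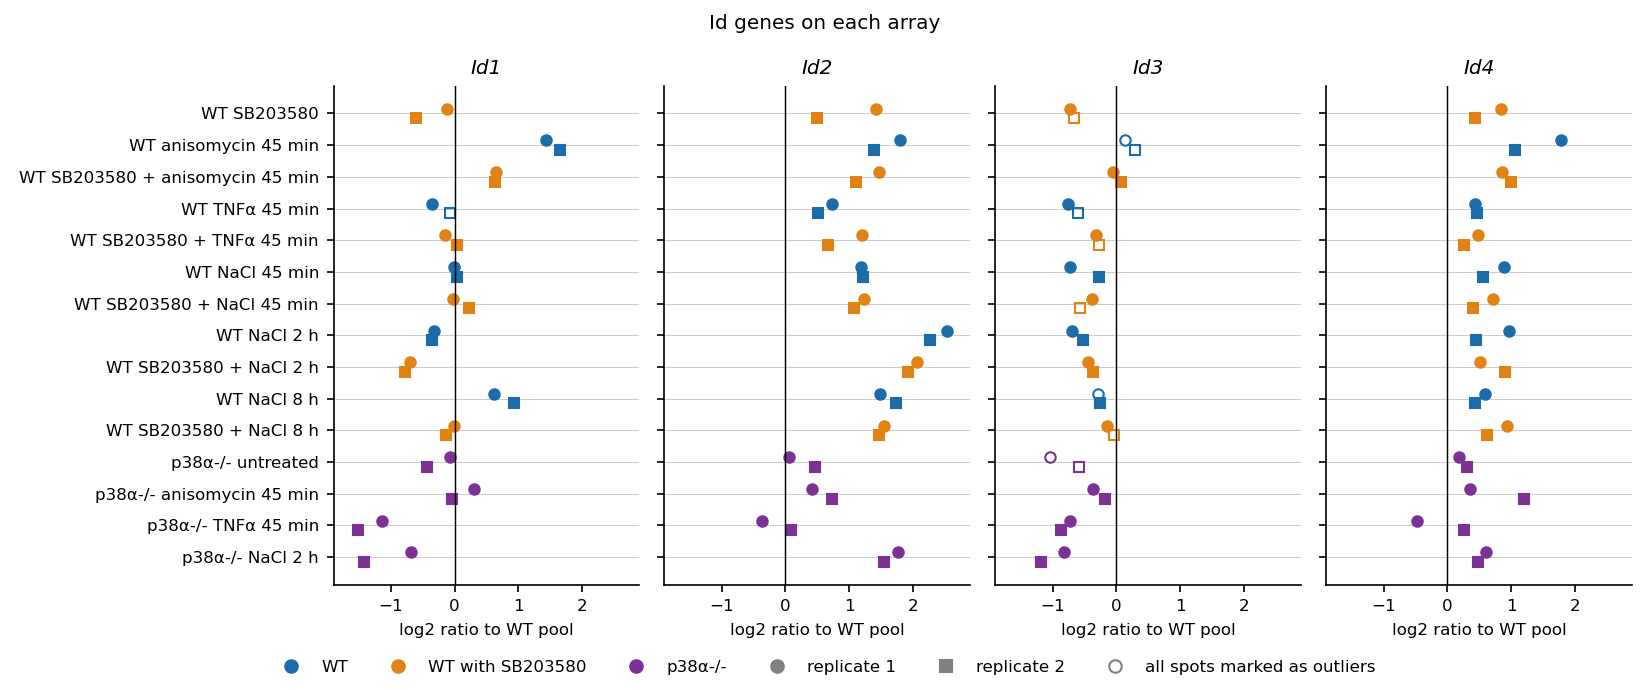
Log2 ratio to the wild type pool of Id1, Id2, Id3 and Id4 (x axis) in the 15 groups (y axis), with replicate 1 as circles and replicate 2 as squares, blue for wild type, orange for SB203580 and purple for p38α-/- MEFs. Open symbols are values whose spots were all marked as outliers. Id2 reaches 2.54 at NaCl for 2 h, Id1 separates anisomycin at 1.43 and 1.66 from most other groups, and Id3 stays at or under the pool on nearly every array.

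The first question was which Id gene stood above or below the pool with which stress in wild type MEFs. Id1, known as an early target of BMP signals, rose with anisomycin and, later, with NaCl for 8 h, but not at the earlier NaCl times. Its log2 ratio with anisomycin was 1.43 and 1.66, a mean of 1.54 ± 0.16 (SD, n = 2) or 2.91-fold (adjusted p = 1.4e-05 from limma). With NaCl it was -0.01 and 0.04 at 45 min, -0.32 and -0.35 at 2 h, and 0.63 and 0.93 at 8 h. The 8 h mean of 0.78 ± 0.21 (SD, n = 2) was called (adjusted p = 0.00151), and without its second array it was not (0.63, adjusted p = 0.0844). The means of 0.02 at 45 min (adjusted p = 0.97) and -0.34 at 2 h (adjusted p = 0.184) were not. With TNFα the measured array gave -0.35 and the marked one -0.07, so no test was made. Both anisomycin arrays lay above every other Id1 value of the study.

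Id2, known for its part in lymphoid and neural lineages and in the cell cycle, was higher than the pool with all 5 stresses. On the 2 arrays anisomycin gave log2 ratios of 1.79 and 1.39, TNFα 0.73 and 0.51, and NaCl 1.19 and 1.21 at 45 min, 2.54 and 2.27 at 2 h, and 1.48 and 1.73 at 8 h. The highest mean was that of NaCl for 2 h, 2.41 ± 0.19 (SD, n = 2) or 5.31-fold (adjusted p = 1.77e-07), and its arrays were above all others of the study. Anisomycin gave 1.59 ± 0.29 (SD, n = 2, adjusted p = 3.8e-05) and NaCl for 8 h 1.61 ± 0.18 (SD, n = 2, adjusted p = 5.64e-06). NaCl for 45 min gave 1.20 ± 0.02 (SD, n = 2, adjusted p = 0.000669), a spread that rests on 1 probe for the second array, where the other probe was marked. The second array of NaCl for 8 h also rests on 1 probe, and with both probes it read 1.58. TNFα gave the lowest mean, 0.62 ± 0.15 (SD, n = 2, adjusted p = 0.0349). The TNFα call was lost without the first array (0.51, adjusted p = 0.332), without the second (0.73, adjusted p = 0.189) and with probe A_51_P219074 alone.

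Id3, a close relative of Id1 that answers to many of the same signals, was lower than the pool in the groups that could be tested. It was -0.73 and -0.28 with NaCl for 45 min, a mean of -0.51 ± 0.32 (SD, n = 2, adjusted p = 0.0326), and -0.69 and -0.52 at 2 h, a mean of -0.60 ± 0.12 (SD, n = 2, adjusted p = 0.0149). At 8 h the measured array gave -0.26 and the marked one -0.29. With TNFα these were -0.75 and -0.60, and with anisomycin both arrays were marked, at 0.14 and 0.29. Without the first array the 45 min value was -0.28 (adjusted p = 0.467), and the 2 h value was -0.52 (adjusted p = 0.294) without the first array and -0.69 (adjusted p = 0.0587) without the second. With another background correction, normexp, and loess the 45 min value was -0.34 (adjusted p = 0.0941). Untreated p38α-/- MEFs gave -1.05 and -0.58 on marked arrays. With marked spots kept, Id3 was -0.68 with TNFα (adjusted p = 0.000389), -0.69 with SB203580 alone (adjusted p = 0.000159) and -0.81 in untreated p38α-/- MEFs (adjusted p = 7.54e-05). With anisomycin Id3 went the other way, at 0.21 with marked spots kept, which was not called, and at 0.44 in the series matrix (adjusted p = 0.00828). It was higher with anisomycin than with TNFα by 0.89 with marked spots kept (adjusted p = 0.0144) and by 0.96 in the series matrix (adjusted p = 0.00509). Compared with NaCl for 45 min it was higher by 0.80 in the series matrix (adjusted p = 0.0332).

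Id4, known for its role in neural precursors and in the testis, had its highest ratio with anisomycin. Its log2 ratio there was 1.79 and 1.07, a mean of 1.43 ± 0.51 (SD, n = 2) or 2.69-fold (adjusted p = 0.000292), and without the first array it was 1.07 (adjusted p = 0.0641). With NaCl it was 0.89 and 0.56 at 45 min (mean 0.73 ± 0.23, SD, n = 2, adjusted p = 0.0303) and 0.96 and 0.45 at 2 h (mean 0.71 ± 0.36, SD, n = 2, adjusted p = 0.0341). Each of these calls was lost without either of its arrays, with 0.56 (adjusted p = 0.388) and 0.89 (adjusted p = 0.0963) left at 45 min and 0.45 (adjusted p = 0.629) and 0.96 (adjusted p = 0.0511) at 2 h. With normexp and loess the 45 min value was 0.34 (adjusted p = 0.0957) and the 2 h value 0.41 (adjusted p = 0.0408), and with probe A_51_P494430 alone the 2 h value was 0.68 (adjusted p = 0.0605). At 8 h it was 0.59 and 0.43 (mean 0.51 ± 0.12, SD, n = 2, adjusted p = 0.0832, and 0.0288 with a replicate block), and with TNFα 0.43 and 0.47 (mean 0.45 ± 0.03, SD, n = 2, adjusted p = 0.17).

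Of the members that could be tested, 3 of 3 were called above the pool with anisomycin, against 12% of all genes called in either direction. With TNFα 1 of 2 was above it, against 11%. With NaCl for 45 min 2 were above and 1 below of 4, against 9.88%. With NaCl for 2 h 2 were above and 1 below of 4, against 9.92%, and at 8 h 2 of 3 were above, against 22.2%. These counts are against the pool and not against matched unstressed arrays. With SB203580 alone and no stress, Id2 (0.96) and Id4 (0.64) were also above the pool. Id3 was below it there on the measured array (-0.72), and Id1 was -0.36. Whether the stress or an offset from the pool gave these calls was not tested. By the methods' threshold of a mean of 2.5-fold, Id1 passed with anisomycin, Id2 with anisomycin and with NaCl for 2 h and 8 h, and Id4 with anisomycin. Every test against the pool leaves out the pool's own spread, and with only the groups of a comparison in the fit none of these 12 calls was made.

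The unstressed arms were set against the pool in the same way. With SB203580 alone Id2 was 1.43 and 0.49, a mean of 0.96 ± 0.66 (SD, n = 2, adjusted p = 0.00137), and it was 0.49 (adjusted p = 0.235) without the first array. Id4 was 0.84 and 0.44, a mean of 0.64 ± 0.28 (SD, n = 2, adjusted p = 0.0276), and 0.44 (adjusted p = 0.464) without the first array. Id1 was -0.11 and -0.61, a mean of -0.36 (adjusted p = 0.096, and 0.0218 with the replicate block), and Id3 -0.72 on the measured array and -0.66 on the marked one. The SD of 0.66 between the arrays of SB203580 alone was the widest of any group for Id2. The Id4 value was 0.34 (adjusted p = 0.0542) with normexp and loess. In untreated p38α-/- MEFs no member was called: Id1 was -0.06 and -0.43 (adjusted p = 0.326), Id2 0.05 and 0.46 (adjusted p = 0.384) and Id4 0.18 and 0.31 (adjusted p = 0.473). With SB203580 alone 2 of 3 tested members were called, against 26.6% of all genes, and in untreated p38α-/- MEFs 0 of 3, against 15% (2529 of 16890 genes in limma, and 4876 at an unadjusted p under 0.05).

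The time course of NaCl in wild type MEFs, in which the pool cancels, showed a late rise of Id1. From 2 h to 8 h Id1 rose by 1.11 (SE 0.22) on the log2 scale, or 2.16-fold (adjusted p = 0.00411), with both 8 h arrays above both 2 h arrays. From 45 min to 8 h it rose by 0.76 (SE 0.22, adjusted p = 0.0426). Without the second 8 h array the first difference was 0.96 (adjusted p = 0.0517), and the second was lost without any one of its 4 arrays, with adjusted p between 0.0651 and 0.262. It was also not called with normexp and loess (0.72, adjusted p = 0.0708), with the series matrix (0.65, adjusted p = 0.0949) or with probe A_52_P533809 alone (adjusted p = 0.0585). Id2 followed another course, with 1.21 (SE 0.26) more at 2 h than at 45 min (adjusted p = 0.0969, and 0.0331 with the replicate block) and 0.80 less at 8 h than at 2 h (adjusted p = 0.066, and 0.0181 with the block). With marked spots kept the Id2 difference from 2 h to 8 h was -0.88 (adjusted p = 0.0459 from limma). Id3 and Id4 gave differences between -0.22 and 0.35 over these times, with none called. Of the members tested, 0 of 4 were called between 45 min and 2 h, against 0.054% of all genes (7 of 12968 in limma, and 767 at an unadjusted p under 0.05), 1 of 3 between 2 h and 8 h, against 7.81%, and 1 of 3 between 45 min and 8 h, against 7.53%.

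After SB203580 Id1 was again lowest at 2 h of NaCl and Id2 again highest. Id1 was -0.03 and 0.23 at 45 min, -0.70 and -0.78 at 2 h, and -0.01 and -0.13 at 8 h. It differed by -0.84 (SE 0.22) from 45 min to 2 h (adjusted p = 0.12, and 0.0226 with the replicate block) and by 0.67 (SE 0.22) from 2 h to 8 h (adjusted p = 0.0817, and 0.0136 with the block). Its 8 h arrays lay below those without the inhibitor and beside the pool. Id2 was 1.24 and 1.08, then 2.07 and 1.92, then 1.55 and 1.47, so that 2 h was again the highest time. No member was called between times in this arm, against 0.343% of all genes from 45 min to 2 h, 7.32% from 2 h to 8 h and 6.55% from 45 min to 8 h. In limma 50, 1169 and 932 genes were called in these comparisons, and 1349, 2899 and 2603 had an unadjusted p under 0.05.

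**Figure D3:**
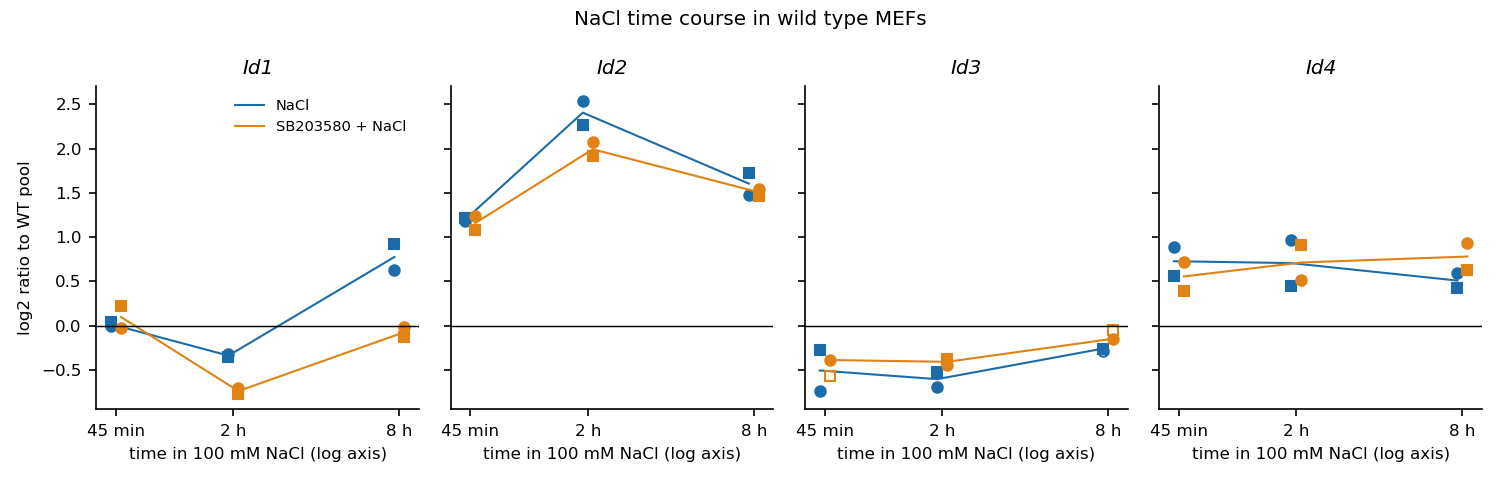
Log2 ratio to the wild type pool of the 4 Id genes (y axis) after 45 min, 2 h and 8 h of 100 mM NaCl (x axis, log scale), without SB203580 in blue and with it in orange, with circles for replicate 1, squares for replicate 2, open symbols for values marked as outliers and lines through the means. Id1 ends at 0.63 and 0.93 without and at -0.01 and -0.13 with the inhibitor, while Id2 peaks at 2 h in both arms.

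The stresses were compared with each other at 45 min. Id1 was 1.53 (SE 0.22) higher with anisomycin than with NaCl (adjusted p = 0.00236), and the call held without any 1 of the 4 arrays, with adjusted p of 0.0221 to 0.0445. Against TNFα the Id1 difference was 1.90, untested because 1 array was marked, and 1.74 (adjusted p = 0.000301) with marked spots kept. Id2 differed by 0.97 (SE 0.26) between anisomycin and TNFα (adjusted p = 0.321) and by 0.39 (SE 0.26) between anisomycin and NaCl (adjusted p = 1). Id4 differed by 0.98 (SE 0.29, adjusted p = 0.466) and 0.70 (SE 0.29, adjusted p = 0.77). Between TNFα and NaCl Id2 differed by -0.58 (SE 0.26, adjusted p = 0.75) and Id4 by -0.28 (SE 0.29, adjusted p = 1). Of the members tested, 1 of 3 was called between anisomycin and NaCl, against 0.289% of all genes, 0 of 2 between anisomycin and TNFα, against 0.183% (26 genes, and 549 at an unadjusted p under 0.05), and 0 of 2 between TNFα and NaCl, against 0.235% (29 genes in limma, and 750 at an unadjusted p under 0.05).

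The next question was how the loss of p38α moved the Id genes under stress. With anisomycin Id1 was 0.31 and -0.04 in p38α-/- MEFs against 1.43 and 1.66 in wild type MEFs, a difference of -1.41 (SE 0.22) or 2.66-fold (adjusted p = 0.00303). Within the 1 scanning day that held both genotypes the difference was -1.35, from 1 array each. The call was lost without the second p38α-/- array (-1.24, adjusted p = 0.0596). With TNFα Id1 was -1.14 and -1.52 in p38α-/- MEFs, its lowest group mean of the study at -1.33 ± 0.27 (SD, n = 2), against -0.35 on the measured and -0.07 on the marked wild type array. This difference of -0.98 was untested, and with marked spots kept it was -1.12 (adjusted p = 0.0238). With NaCl for 2 h Id1 was -0.69 and -1.43 against -0.32 and -0.35, a difference of -0.72 (SE 0.22, adjusted p = 0.185, and 0.027 with the replicate block), and was -1.09 (adjusted p = 0.0242) without the first p38α-/- array and -0.34 within the shared scanning day. In each stress both p38α-/- arrays lay below both wild type arrays for Id1, and with marked spots kept the mean over the 3 stresses was -1.07 (adjusted p = 2.35e-05). Here and elsewhere, such a separation of arrays is a description, since its share over all genes was not counted.

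Id2 was also lower in p38α-/- MEFs under each stress. It was 0.42 and 0.74 with anisomycin, -0.36 and 0.08 with TNFα and 1.76 and 1.54 with NaCl for 2 h, and every p38α-/- array was below both wild type arrays of its stress. The differences were -1.01 (SE 0.26, adjusted p = 0.0658), -0.76 (SE 0.26, adjusted p = 0.35) and -0.76 (SE 0.26, adjusted p = 0.235), with -0.96, -0.87 and -0.51 within the shared scanning day. The anisomycin difference was called with the replicate block (adjusted p = 0.0107), with the scanning day as a term (-0.96, adjusted p = 0.0403), with normexp and loess (-1.13, adjusted p = 0.0244) and with the series matrix (-1.08, adjusted p = 0.0235). The mean over the 3 stresses was -0.84 (SE 0.15) or 1.79-fold (adjusted p = 0.0014), and it was called without any 1 of the 12 arrays. The comparison of the unstressed p38α-/- MEFs with the pool gave 0.26 for Id2, with an adjusted p of 0.384.

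Id4 was 0.36 and 1.21 with anisomycin, -0.48 and 0.27 with TNFα and 0.60 and 0.48 with NaCl in p38α-/- MEFs. Its differences were -0.64 (SE 0.29, adjusted p = 0.367), -0.55 (SE 0.29, adjusted p = 0.706) and -0.17 (SE 0.29, adjusted p = 0.875), and -0.70, -0.94 and 0.15 within the shared scanning day. Their mean was -0.45 (SE 0.17, adjusted p = 0.0983), and the adjusted p was 0.028 with the replicate block. Id3 was -0.82 and -1.18 with NaCl for 2 h, the lowest mean of this gene at -1.0 ± 0.25 (SD, n = 2). The difference from wild type MEFs was -0.40 (SE 0.18, adjusted p = 0.43), and -0.31 within the shared scanning day. With marked spots kept, the Id3 mean over the 3 stresses was -0.34 (adjusted p = 0.0225). Of the members tested, 1 of 3 was called with anisomycin, against 1.27% of all genes, 0 of 2 with TNFα, against 0.414% (59 genes in limma, and 1115 at an unadjusted p under 0.05), 0 of 4 with NaCl for 2 h, against 0.697% (123 genes, and 2042 at an unadjusted p under 0.05), and 1 of 2 in the mean over the 3 stresses, against 8.81%.

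Between stress with and without SB203580 no member's difference was called. The 95% intervals given here are not adjusted for the number of genes, and separation of the arrays was not counted over all genes. For Id1 both arrays with SB203580 and anisomycin, at 0.65 and 0.64, lay below both with anisomycin alone, a difference of -0.90 (95% interval -1.36 to -0.43, adjusted p = 0.776). At NaCl for 8 h the Id1 difference was -0.85 (95% interval -1.31 to -0.39, adjusted p = 0.232, and 0.0228 with the replicate block), again with no overlap of the arrays. At NaCl for 2 h it was -0.40 (95% interval -0.86 to 0.06), also without overlap. At NaCl for 45 min it was 0.08 (95% interval -0.38 to 0.55), and with TNFα it was 0.30 on the measured arrays. Id2 was 1.46 and 1.11 with SB203580 and anisomycin and 1.20 and 0.67 with SB203580 and TNFα. The second Id2 values with SB203580 and TNFα, NaCl for 45 min or NaCl for 8 h rest on 1 probe. With both probes they were 0.80, 0.76 and 1.33. The Id2 differences were -0.30 under anisomycin, 0.31 under TNFα, -0.04 at 45 min of NaCl, -0.41 at 2 h and -0.10 at 8 h, each with a 95% interval that held 0, and their mean was -0.11 (95% interval -0.35 to 0.13). Id4 differed by -0.50 with anisomycin (95% interval -1.11 to 0.10) and by -0.17 to 0.27 with the other stresses. Id3, measured on both arrays of each group with NaCl for 2 h, differed by 0.20 (95% interval -0.20 to 0.59).

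These p-values of SB203580 stood in comparisons in which few genes passed. With anisomycin 0 of 3 tested members were called, against 0.0204% of all genes (3 genes in limma, and 310 at an unadjusted p under 0.05). With TNFα it was 0 of 2, with NaCl for 45 min 0 of 3 and with NaCl for 2 h 0 of 4, each against 0%, and 204, 312 and 533 genes had an unadjusted p under 0.05. At 8 h it was 0 of 3, against 0.206% (31 genes, and 758 at an unadjusted p under 0.05), and in the mean over the 5 stresses 0 of 2, against 0.0742% (8 genes, and 522 at an unadjusted p under 0.05). Whether the loss of p38α and SB203580 differed in their effect was not tested.

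**Figure D4:**
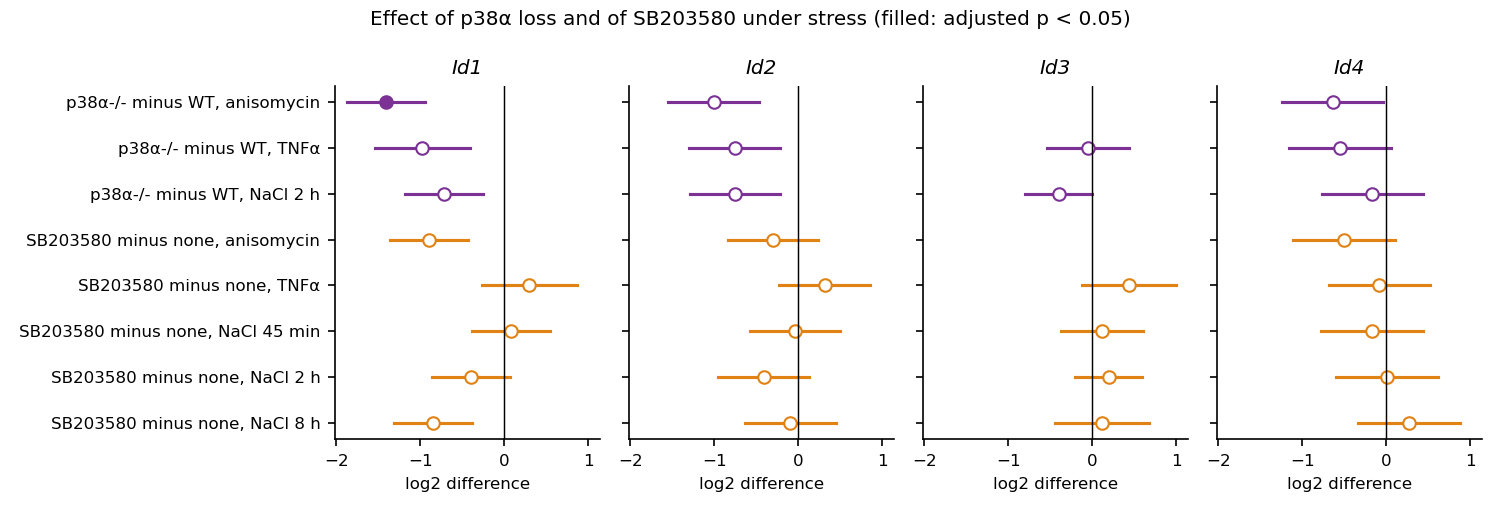
Log2 difference (x axis) between p38α-/- and wild type MEFs under 3 stresses (purple) and between SB203580 and no inhibitor under 5 stresses (orange) for the 4 Id genes, with unadjusted 95% intervals from limma. Filled points passed an adjusted p of 0.05, which only Id1 with anisomycin did at -1.41, and open points did not or were untested. All drawn points of p38α-/- MEFs lie left of 0. Those of Id3 are at -0.05 with TNFα, untested, and -0.40 with NaCl for 2 h, and Id3 has no point with anisomycin.

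Within an arm, each stress was set against the unstressed cells of the same arm, so that the pool cancels. Each arm had 1 unstressed group for all its stress times, so stress cannot be told apart from time. In the SB203580 arm this includes time with the inhibitor. In p38α-/- MEFs NaCl for 2 h raised Id2 by 1.39 (SE 0.26) or 2.63-fold (adjusted p = 0.00935), from 0.05 and 0.46 to 1.76 and 1.54. This call was lost without the first untreated array (1.19, adjusted p = 0.168) and without the second NaCl array (1.50, adjusted p = 0.0854). Id1 differed by -0.81 (SE 0.22, adjusted p = 0.101, and 0.0128 with the replicate block) with NaCl and by -1.09 (SE 0.22, adjusted p = 0.124, and 0.00554 with the block) with TNFα, with no overlap between stressed and untreated arrays. With anisomycin the p38α-/- differences were 0.38 for Id1, 0.32 for Id2 and 0.54 for Id4, each with adjusted p = 1. The counts were 0 of 3 with anisomycin, against 0.0847% of all genes (14 genes in limma, and 579 at an unadjusted p under 0.05), 0 of 3 with TNFα, against 0.078% (12 genes, and 466 at an unadjusted p under 0.05), and 1 of 3 with NaCl, against 1.08%.

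Against SB203580 alone, Id2 rose by 1.04 (SE 0.26) or 2.05-fold with SB203580 and NaCl for 2 h (adjusted p = 0.034). It was not called with normexp and loess, with probe A_51_P219074 alone, or without the second array of SB203580 alone (0.57, adjusted p = 0.208) or the first (0.96, adjusted p = 0.236) or second (1.11, adjusted p = 0.12) stressed array. At 8 h it was 0.55 higher (adjusted p = 0.238), and 1.02 higher (adjusted p = 0.045) without the first array of SB203580 alone. Id1 with anisomycin differed by 1.00 (SE 0.22, adjusted p = 0.339), with both stressed arrays above both unstressed ones. The counts were 0 of 3 with anisomycin, against 0.014% of all genes (2 genes, and 840 at an unadjusted p under 0.05), 0 of 3 with TNFα, against 0.0983% (14 genes, and 639), 0 of 3 with NaCl for 45 min, against 0.0435% (6 genes, and 886), 1 of 3 at 2 h, against 2.87%, and 0 of 3 at 8 h, against 7.78% (1114 genes in limma, and 2887).

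The difference of induction, wild type stress against the pool minus the stress within the arm, compared a response between arms. The pool stands in for unstressed wild type MEFs, which had no arrays of their own. It therefore does not cancel, and an offset of a gene from the pool enters each of these differences. Fitted on only its own groups, no call of a single stress within or between arms remained. For Id2 at NaCl for 2 h the induction was 1.37 (SE 0.32) larger without SB203580 than with it (adjusted p = 0.0367). This rested on the level of SB203580 alone, whose arrays were 1.43 and 0.49: without the first of them the difference was 0.90 (adjusted p = 0.341) and without the second it was 1.84 (adjusted p = 0.0057). It was also lost without the first array of NaCl (1.24, adjusted p = 0.199) or the first (1.45, adjusted p = 0.143) or second (1.30, adjusted p = 0.117) array of SB203580 and NaCl, and with probe A_51_P219074 alone. With anisomycin the induction of Id2 was 1.27 (SE 0.32) larger in wild type than in p38α-/- MEFs (adjusted p = 0.0708, and 0.0152 with the replicate block) and 1.26 (SE 0.32) larger than with SB203580 (adjusted p = 0.0704, and 0.0176 with the block). The induction of Id1 with anisomycin was 1.17 (SE 0.27) larger in wild type than in p38α-/- MEFs (adjusted p = 0.0626, and 0.00853 with the block), and 0.54 (SE 0.27) larger than with SB203580 (adjusted p = 0.317). For Id4 these were 0.89 (SE 0.35, adjusted p = 0.236) and 1.14 (SE 0.35, adjusted p = 0.123, and 0.0397 with the block), and for Id2 with NaCl for 8 h 1.06 (SE 0.32, adjusted p = 0.128, and 0.0366 with the block). Id3, untested here for its marked spots, had the opposite sign. With marked spots kept, its wild type induction minus that with SB203580 was -1.07 with TNFα (adjusted p = 0.00561), -0.89 with NaCl for 2 h (adjusted p = 0.0139) and -0.87 at 8 h (adjusted p = 0.027). In the series matrix these differences were -0.82 (adjusted p = 0.02), -0.72 (adjusted p = 0.026) and -0.71 (adjusted p = 0.0395). Against p38α-/- MEFs the Id3 difference with TNFα was -0.69 with marked spots kept (adjusted p = 0.0373).

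Against p38α-/- MEFs 0 of 3 members were called with anisomycin, against 0.542% of all genes (80 genes in limma, and 2252 at an unadjusted p under 0.05), 0 of 2 with TNFα, against 0.45% (62 genes, and 1998), and 0 of 3 with NaCl for 2 h, against 0% (2167 genes at an unadjusted p under 0.05). Against SB203580 it was 0 of 3 with anisomycin, against 0.583% (79 genes in limma, and 2323), 0 of 2 with TNFα, against 0.651% (87 genes, and 2101), 0 of 3 with NaCl for 45 min, against 0.0936% (11 genes, and 1559), 1 of 3 at 2 h, against 1.65%, and 0 of 3 at 8 h, against 0.295% (40 genes, and 2153).

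The study took a gene as p38-dependent when either arm lowered its expression by 50% or more, with no scale given. For members at 2.5-fold the share kept was computed on log2 ratios and on folds. On log2 ratios, of the anisomycin response, p38α-/- MEFs kept 8.54% for Id1, 36.6% for Id2 and 55.1% for Id4, and SB203580 kept 41.8%, 81.0% and 64.9%. Of the Id2 response to NaCl, p38α-/- MEFs kept 68.6% at 2 h, and SB203580 kept 82.8% at 2 h and 93.9% at 8 h. After subtraction of the unstressed arm the shares were 24.4%, 20.4% and 38% with anisomycin in p38α-/- MEFs and 65.1%, 20.7% and 20.2% with SB203580. For Id2 with NaCl they were 57.9% in p38α-/- MEFs, and 43.0% at 2 h and 34.3% at 8 h with SB203580. The side of the 50% line therefore changed with the subtraction for Id1, Id2 and Id4 with SB203580 and for Id4 in p38α-/- MEFs. On folds, without subtraction, p38α-/- MEFs kept 37.6% of the anisomycin level for Id1, 49.7% for Id2 and 64.1% for Id4, and SB203580 kept 53.7%, 81.1% and 70.6%. For Id2 with NaCl p38α-/- MEFs kept 59.2% at 2 h, and SB203580 kept 75.1% at 2 h and 93.4% at 8 h. Id1 with SB203580 and anisomycin was thus under 50% on log2 ratios and over it on folds.

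The E proteins that Id proteins bind spanned narrower ranges over the arrays than Id1, Id2 and Id4. Tcf3 spanned a wider range than Id3, which lay between -1.18 and 0.07. Tcf3, which encodes E2A, lay between -0.60 and 0.83 over its arrays and was called in no comparison. Tcf4 lay between -0.42 and 0.64. It was 0.64 and 0.31 in untreated p38α-/- MEFs (mean 0.47, adjusted p = 0.00744), and it was 0.53 lower at 8 h than at 2 h of NaCl (adjusted p = 0.0449). Tcf12 lay between -0.11 and 0.77 and was higher than the pool with anisomycin (0.58 and 0.60, adjusted p = 0.0172), TNFα (0.33 and 0.70, adjusted p = 0.0356) and SB203580 alone (0.77 and 0.34, adjusted p = 0.0127). In the mean over 3 stresses Tcf12 was -0.47 (SE 0.12) in p38α-/- against wild type MEFs (adjusted p = 0.0225), while Tcf3 was -0.02 (adjusted p = 0.967) and Tcf4 0.10 (adjusted p = 0.498). Of all genes, 12% were called with anisomycin, 11% with TNFα, 26.6% with SB203580 alone and 15% in untreated p38α-/- MEFs. The share was 7.81% between 2 h and 8 h of NaCl and 8.81% in the mean over 3 stresses.

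Genes around the Id family were read from 8 lists of 50 genes, 49 of them on the array. Among the inhibitors of BMP signalling, Smad7, which blocks the receptors, rose with anisomycin (1.41, adjusted p = 1.12e-05), TNFα (1.20, adjusted p = 5.13e-05), NaCl for 2 h (2.37, adjusted p = 3.46e-08) and NaCl for 8 h (0.92, adjusted p = 9.81e-05). It was the only one called of 7 tested with anisomycin, against 12% of all genes, and of 6 with TNFα, against 11%. At 2 h, against 9.92% of all genes called, 2 of 9 rose, Smad7 and the BMP antagonist Grem1 (0.70), and Nog, another antagonist, fell by 0.49. At 8 h, against 22.2%, 3 of 8 rose, Smad7, Grem1 (0.67) and Smad6 (0.25), and Chrd, named after its value was seen, fell by 0.37. Smad7 on its arrays was 2.42 and 2.32 with NaCl for 2 h, 1.27 and 1.32 with SB203580 before it and 1.82 and 1.90 in p38α-/- MEFs, so that its 3 groups did not overlap. Neither the SB203580 nor the p38α-/- difference of Smad7 from wild type MEFs at 2 h was called, against 0% and 0.697% of all genes. In p38α-/- MEFs Smad7 was lower than in wild type MEFs with anisomycin (-0.89, adjusted p = 0.0225), and in the mean over 3 stresses, against 8.81% of all genes called, 3 of 6 inhibitors were lower, Smad7 (-0.66), Grem1 (-0.56) and Smad6 (-0.42), and the ubiquitin ligase Smurf2 was higher (0.42). Fst, which encodes the activin-binding protein follistatin, was far lower in untreated p38α-/- MEFs than in the pool (-2.31, adjusted p = 4.9e-05). In that comparison, against 15% of all genes called, Smad6 was also lower (-0.33), and Smurf1, named after its value was seen, was higher (0.38).

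The ligands, receptors and Smads of the pathway were read against the same shares of all genes, 12% with anisomycin, 11% with TNFα, 9.88%, 9.92% and 22.2% at the NaCl times and 8.81% in the mean over 3 stresses. Among ligands, Bmp2 was lower than the pool with anisomycin (-0.46, 1 of 4 tested) and with NaCl for 45 min (-0.39, 1 of 2), Bmp5 was higher at 2 h (0.80, 1 of 6) and Gdf6 at 8 h (1.03, 1 of 4), and 0 of 3 passed with TNFα. Among type I and II receptors, Bmpr1a was higher with TNFα (0.60, 1 of 4), Acvr2a at 2 h of NaCl (0.52, 1 of 5), and Acvr2a (0.95) and Bmpr1a (0.82) at 8 h, 2 of 4. Bmpr1a (-0.66) and Bmpr1b (-0.56) were lower in the mean of p38α-/- against wild type MEFs, 2 of 4. Among Smads that carry the signal, Smad1 (0.41) and Smad9 (0.35) were higher with anisomycin, 2 of 3, and Smad9 (0.43) with TNFα, 1 of 3. With SB203580 alone and no stress, against 26.6% of all genes called, Smad1 was also higher (0.37, adjusted p = 0.0391), as was Smad9 (0.39, adjusted p = 0.013), 2 of 3 tested. Of 5 ligands tested there, Bmp5 was higher (0.52, adjusted p = 0.0164) and Bmp2 lower (-0.52, adjusted p = 0.00437).

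Among other helix-loop-helix genes, Twist1, a regulator of mesenchyme, was 0.81 and 0.83 at 45 min, 1.88 and 1.44 at 2 h (mean 1.66, adjusted p = 4.49e-08) and 1.02 and 1.37 at 8 h, so that like Id2 its mean was highest at 2 h. It also rose within the p38α-/- arm with NaCl for 2 h (1.35, adjusted p = 0.000136). Twist2 was 1.44 at 8 h of NaCl and also 0.63 with SB203580 alone (adjusted p = 0.00999), and Hes1, a target of Notch, rose in p38α-/- MEFs with NaCl (1.84, adjusted p = 0.0124). With TNFα, against 11% of all genes, 3 of 10 rose, Bhlhe40 (1.11), Twist2 (0.62) and Twist1 (0.42), and Tcf15, named after its value was seen, fell by 0.41. Tcf15 was also called lower with NaCl for 45 min (-0.34) and 8 h (-0.30). Hey2 at 2 h of NaCl (0.52) and Bhlhe41 in p38α-/- MEFs with NaCl (1.02) were higher, both also named after their values were seen. Of all genes, 9.88%, 9.92% and 22.2% were called at the NaCl times, and 1.08% with NaCl within the p38α-/- arm. None of 8 passed with anisomycin, against 12% of all genes (1887 in limma, and 4447 at an unadjusted p under 0.05). In untreated p38α-/- MEFs Hey1 (1.08) and Tcf21 (1.08) were higher than the pool, 2 of 10, against 15%. Of the ETS factors, Ets1 rose at 8 h (0.96, 1 of 3, against 22.2%), and Elk3 was higher in the mean of p38α-/- against wild type MEFs (0.45, 1 of 3, against 8.81%). Of the cell cycle inhibitors, Cdkn1a was -0.48 at 8 h of NaCl, 1 of 2, against 22.2% of all genes. None passed in the other stresses of wild type MEFs, against 9.88% to 12% of all genes. Medians of the lists over these comparisons with the pool lay between -0.30 and 0.49, with medians of all genes between 0 and 0.01.

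The patterns of the members over the group means were compared as a description, since all groups share the pool. Id1 and Id3 were most alike, with a Pearson correlation of 0.79 over 13 groups, and Id3 had Id1 as the most similar of 681 genes compared. Id1 and Id4 correlated at 0.73, Id2 and Id4 at 0.59, Id1 and Id2 at 0.25 and Id2 and Id3 at 0.17. Genes most like Id2 over 15 groups were Tiparp (0.95), 5530402M19Rik (0.93) and Aspn (0.91), out of 640 genes compared. For Id1 they were 3110001I22Rik (0.77), 1810008K03Rik (0.74) and Olfr670 (0.73), for Id3 after Id1 Hist1h1c (0.75) and Olfr670 (0.70), and for Id4 1500001A10Rik (0.77), Arfl4 (0.75) and 2810405F15Rik (0.74).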

How the data were processed

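Total RNA was measured on 2-colour Agilent 44K arrays. Cy5 and Cy3 intensities were extracted by the authors in Agilent Feature Extraction, whose headers name release 8.1.1.1. It balanced both dyes (linear, then LOWESS), and the deposited log10 ratio is that of the processed Cy5 over Cy3 signal. The deposited series matrix holds log2 values, a scale judged from its values, with slopes of 0.86 to 0.96 on the log2 ratios, and 1 value per probe, centred near 0.

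Log10 ratios of spots other than controls were turned to log2. Outlier spots were left out, repeated spots were averaged per probe, and probes were averaged per gene name as spelled on the array, with id3 taken as Id3. R 4.3.3 with limma 3.58.1 fitted 15 group means to 30 arrays, and p-values were adjusted by Benjamini-Hochberg over the genes measured on every array compared, called under 0.05. The fit was tested on simulated data. Figures used Python 3.11.15 and matplotlib 3.10.9.

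To see whether replicate numbers pair the samples, the difference of the 2 arrays was correlated between groups. Among wild type groups 55 of 55 correlations exceeded 0.1 (0.13 to 0.65) as did 6 of 6 among p38α-/- groups (0.15 to 0.45), and 6 of 44 across genotypes. Arrays of one replicate number thus shared variation within a genotype. In each genotype the replicates were scanned on different days, so pairing and scanning day cannot be told apart here. The replicate block, which in wild type MEFs is also the scanning day, is an alternative, since the methods use none.

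Members, lists and tests were chosen with earlier results of these data known. Genes named were the members, Mapk14, list genes that were called (at most 6 a list, by size), Tcf3, Tcf4 and Tcf12, and the 3 genes most like each member among those with an SD of at least 0.5 over the group means. Alternatives were normexp (offset 50) with loess, the series matrix, outlier spots kept, probes well above background, single probes, a replicate block, fewer groups in the fit, a 2.5-fold threshold and each array left out, and, added after the data were seen, the scanning day. Protein sequences were not used here. With 2 arrays a group, their number sets the precision of all values.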

Additional observations from a re-analysis of the deposited data

Results flagged for a closer look

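The induction of Id2 by NaCl for 2 h differed between wild type MEFs without and with SB203580 by 1.37 on the log2 scale (adjusted p = 0.0367 from limma). The pool stands in for unstressed wild type MEFs and does not cancel, so an offset of Id2 from the pool enters this value. The wild type arrays were 2.54 and 2.27, those with SB203580 and NaCl 2.07 and 1.92, and those with SB203580 alone 1.43 and 0.49. Without the first array of SB203580 alone it was 0.90 (adjusted p = 0.341).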

How the results depend on the processing

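Of the 22 called differences of single members, all 22 stayed called with outlier spots kept, with probes well above background on every array and with the replicate block, 21 with the series matrix, 17 with normexp and loess, 9 at a 2.5-fold mean and 1 with only the groups of the contrast in the fit, which has few residual degrees of freedom. None changed sign, and 28 of 70 fits without 1 array lost the call. The filter for probes well above background left every member value as it was, and the replicate block left the estimates of these differences as they were. Either could change only the adjusted p. Of 1284 values called in neither fit, 42 changed sign, with values of up to 0.44.

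Wild type stress against the pool gave 12 of 16 calls, 0 with only its groups, 5 at 2.5-fold, 6 by every probe and 10 to 12 without 1 array. SB203580 alone and untreated p38α-/- MEFs gave 2 of 6, 1 with normexp, 4 with the series matrix, 4 with outliers kept, 0 with only their groups, 0 at 2.5-fold and 0 to 3 without 1 array. Stress within the SB203580 arm gave 1 of 15, 2 with outliers kept, 0 with normexp, only its groups, 2.5-fold or every probe, and 0 to 2 without 1 array. Stress within p38α-/- MEFs gave 1 of 9, 2 with the series matrix, 3 with the replicate block, 2 with the scanning day, 0 with only its groups and 0 to 2 without 1 array. The SB203580 effect gave 0 of 17 in limma, 1 with the replicate block and 0 to 0 without 1 array.

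The p38α-/- effect gave 2 of 11, 4 with normexp, 6 with the series matrix, 5 with outliers kept, 5 with the replicate block, 4 with the scanning day, 1 with only its groups, at 2.5-fold or by every probe, and 2 to 3 without 1 array. The difference of induction gave 1 of 22, 7 with normexp, 12 with the series matrix, 8 with outliers kept, 2 with probes well above background, 6 with the replicate block, 3 by any probe, 0 with only its groups or by every probe, and 0 to 6 without 1 array. The NaCl time course gave 2 of 19, 1 with normexp, 6 with the replicate block, 0 with only its groups or at 2.5-fold, 0 by every probe and 0 to 2 without 1 array. The Id1 difference from 2 h to 8 h could be tested with neither probe alone, since each had a marked spot, so the 0 by every probe is no lost call for it. The stresses at 45 min gave 1 of 7, 4 with the series matrix, 3 with outliers kept, 0 with only their groups and 1 to 2 without 1 array. By every probe or by any probe it was 0, because the called Id1 difference of anisomycin and NaCl could not be tested with either probe alone. Beyond the values printed beside the results, the replicate block changed no other call. The causes of these changes were not tested, except that keeping outlier spots and the series matrix test members otherwise untested. All member probes were well above background on every array.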

Other observations

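2 further probes on the array carry a description that names an Id gene under another name, and they stood outside the members. A probe described as Id2, A_52_P94071, ranged from -0.63 to 0.45 over the 30 arrays with a median of -0.13, and read -0.18 and -0.05 with NaCl for 2 h, where the named Id2 probes read between 2.05 and 2.73. A probe described as Id4, A_51_P509824, ranged from -0.42 to 0.13 with a median of -0.21, and read -0.22 and -0.30 with anisomycin. On 1 array the first of these probes was saturated. Which transcript each of them reads was not tested.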
